A study of Mus musculus with 4 samples.

Results

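The interferon-stimulated genes and sensors described here are 46 mouse genes that were taken by symbol: genes that interferon induces, the transcription factors and receptor chains of the pathway, and the proteins that sense foreign RNA or DNA. Of these, 45 were analysed here, and 38 had an FPKM above 2 in every library, among 10489 genes that did so of 21862 genes in all. FPKM scales the reads of a gene to transcript length and to library size, so levels of different genes can be set side by side on this scale. The cells were N31 NPCs, neural progenitors of mouse that were derived from iPSCs and carry Dox-dependent Oct4, Klf4, c-Myc and Sox2 transgenes, grown on matrices coated with collagen in NPC medium that lacked EGF and bFGF. The control groups were N31 NPCs on a soft (0.5 kPa) and on a stiff (12 kPa) matrix, and the shSrf groups, called Srf-knockdown NPCs below, were N31 NPCs expressing a single short hairpin RNA against Srf, shSrf#1, on the same matrices. The study used this design to ask how matrix stiffness and Srf, a transcription factor of actin cytoskeletal and early-response genes, affect the expression of cell-type-specific genes. The hairpin was carried by a retroviral vector with an H1 promoter. The sources used here do not state whether the control cells carried a control vector, so loss of Srf and the presence of the vector cannot be told apart. Each of the 4 conditions had 1 library. Replicate error is therefore unknown for every difference below, and no test was run.

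Type I interferons act on the receptor chains Ifnar1 and Ifnar2, whose kinases Jak1 and Tyk2 activate Stat2. With Irf9 it enters a complex that binds the interferon-stimulated response element (ISRE) in front of genes such as the Ifit genes, Isg15 and Rsad2. The interferon genes themselves are switched on by Irf3 and Irf7 downstream of cytosolic RNA sensors (Ddx58, Ifih1), of the endosomal sensor Tlr3 and of the DNA sensor Mb21d1 with its adaptor Tmem173. Neural progenitors, like most cells, express the sensors and the receptor at rest, and several interferon-stimulated genes have a basal level without infection.

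The FPKM of Srf was 34.4 and 35.6 in control NPCs on the soft and stiff matrix and 16.2 and 17.4 in Srf-knockdown NPCs, in the direction of the labels. The depth of the libraries, estimated from the steps of low FPKM values, was 29.1 and 24.1 (control) and 45.0 and 62.3 (Srf knockdown) in units of 1e6 reads, so both Srf-knockdown libraries were deeper than both control libraries. A transcript of 2000 nucleotides with 3 reads would have had an FPKM of 0.0268 in the deepest and 0.0691 in the shallowest library. Standard errors given below are counting errors of a log2 ratio from the estimated reads of a gene. They do not cover differences between cultures or library preparations.

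None of 12 interferon genes was expressed above the minimum. The 9 genes Ifna1, Ifna2, Ifna5, Ifna13, Ifnk, Ifng, Ifnl2, Ifnl3 and Ifnz were listed at 0 in all 4 libraries. Ifnb1 was at 0.125, 0, 0.0404 and 0.0585 (control at 0.5 kPa, control at 12 kPa, Srf knockdown at 0.5 kPa, Srf knockdown at 12 kPa), the order used for all values below, which is about 2 reads or fewer in each library. Ifna4 was above 0 only in Srf-knockdown NPCs at 0.5 kPa (0.0617), and Ifne was at 0.148 in control NPCs at 0.5 kPa and 0.0347 in Srf-knockdown NPCs at 12 kPa. An interferon gene expressed at an FPKM below the limit that 3 reads allow would not have been detectable at this depth.

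The label of neural progenitor cells was compared with the defining markers of that and other cell types. Of 15 neural progenitor markers, 6 were above the minimum, and Sox1, Olig2 and Hes5 were listed at 0 in every library. Nes was at 51.6, 36.1, 16.4 and 15.5 and Sox2 at 4.29, 5.49, 19.1 and 20.4, so these markers differed between the populations in opposite directions. The log2 ratios of Srf-knockdown to control NPCs on the soft and stiff matrix were -1.47 and -1.48 for Slc1a3, -0.77 and -0.56 for Notch1, 0.49 and 0.69 for Vim and 1.31 and 0.97 for Pax6. Of 12 mesenchymal markers 11 were above the minimum, with a summed FPKM between 4054 and 4679. Acta2, a smooth muscle actin, was at 321, 322, 6.74 and 8.96, far lower in Srf-knockdown NPCs. Among the other mesenchymal markers above the minimum, the largest falls on the log2 scale were -0.75 and -0.52 for Col1a2 and -0.40 and -0.36 for Cdh2. The largest rises were 0.61 and 0.72 for Pdgfrb, 0.35 and 0.47 for Col1a1 and 0.33 and 0.44 for Twist1. Thy1, under the minimum in Srf-knockdown NPCs on the stiff matrix, was at 5.37, 3.60, 2.06 and 1.93 (log2 ratios -1.38 and -0.90). Macrophages and microglia, which express many interferon-stimulated genes, had 1 of 11 listed markers above the minimum (Cd68, at 5.08, 4.64, 6.66 and 5.35), and Tyrobp, C1qa, C1qb and Adgre1 were at 0 in all libraries. Their summed FPKM was 5.33 and 5.23 in control and 6.81 and 6.17 in Srf-knockdown NPCs. Endothelial markers had 1 of 8 above the minimum (Flt1, log2 ratios -1.29 and -0.47) and sums between 6.47 and 9.59. Of those under the minimum, Emcn went the other way, at 0.806, 0.844, 5.29 and 4.92. So did Tek, at 0.156, 0.146, 0.364 and 0.447. The remaining endothelial markers stayed under an FPKM of 1 in every library. Astrocyte markers had 3 of 7 above the minimum and sums of 428, 366, 227 and 237, of which Gja1, a connexin, made up 397, 334, 187 and 199. The other astrocyte markers above the minimum were higher, with log2 ratios of 0.25 and 0.34 for Aldh1l1 and of 0.43 and 0.18 for Aldoc. The part of these cell-type differences in the ratios below was not tested. In bulk RNA, a larger share of cells that express a gene and more RNA of it per cell cannot be told apart.

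Between Srf-knockdown and control NPCs, the interferon-stimulated genes and sensors differed in both directions, with the largest differences upwards. On the soft matrix, 20 of the 38 genes above the minimum (52.6%) were higher in Srf-knockdown NPCs by more than 1.1-fold, the threshold of the study, beside 37.4% of all 10489 included genes. A further 7 of 38 (18.4%) were lower, beside 35.7% of all genes. On the stiff matrix 23 (60.5%) were higher and 8 (21.1%) lower, beside 37.6% and 35.9% of all genes. Most included genes thus passed 1.1-fold in these ratios, so a second threshold of 2-fold was also used.

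Beyond 2-fold, 6 of 38 genes (15.8%) were higher in Srf-knockdown NPCs on the soft matrix and 7 (18.4%) on the stiff matrix, beside 2.45% and 2.74% of all genes. None was lower beyond 2-fold, beside 2.86% and 2.22% of all genes. The median log2 ratio of the 38 genes was 0.22 and 0.27 on the soft and stiff matrix, and that of all included genes 0.0106 and 0.0098. The log2 ratios ranged from -0.81 to 2.10 and from -0.71 to 2.03, and 10 and 11 of the genes lay above the 95th percentile of all genes (0.77 and 0.79). Since a gene had to be above the minimum in all 4 libraries, the 8 genes that were not are described separately.

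**Figure D1:**
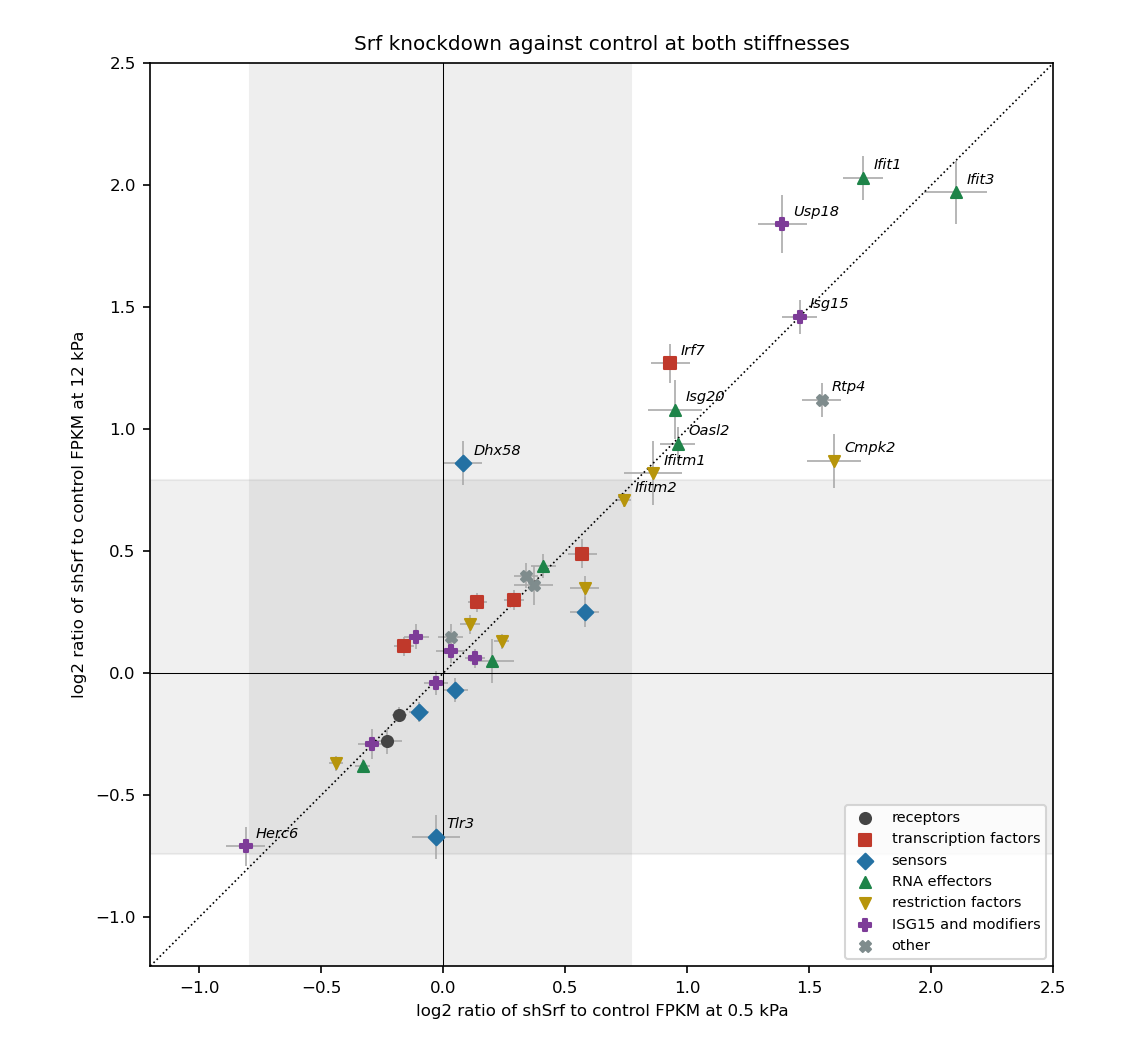
Log2 ratio of FPKM in Srf-knockdown over control NPCs on the 0.5 kPa (horizontal axis) and the 12 kPa matrix (vertical axis), with 1 point for each of the 38 genes, a symbol for each role, counting errors (SE) as bars, equality as a dotted line and grey bands from the 5th to the 95th percentile of all 10489 included genes. Ifit1, Ifit3, Isg15, Usp18 and Rtp4 lie beyond 2-fold (a log2 ratio of 1) on both matrices, and Herc6 is the lowest on both.

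At both stiffnesses, 18 of 38 genes (47.4%) were higher in Srf-knockdown NPCs by more than 1.1-fold, beside 30.3% of all genes, and 6 (15.8%) were lower, beside 28.8% of all genes. Ifit1, Ifit3, Isg15, Usp18 and Rtp4 were higher by more than 2-fold at both (5 of 38, 13.2%, beside 1.74% of all genes). The 6 lower genes were Ifnar1, Ifnar2, Eif2ak2, Gbp2, Herc6 and Dtx3l. These 2 pairs of libraries share no library, but they come from the same 2 cell populations.

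**Figure D2:**
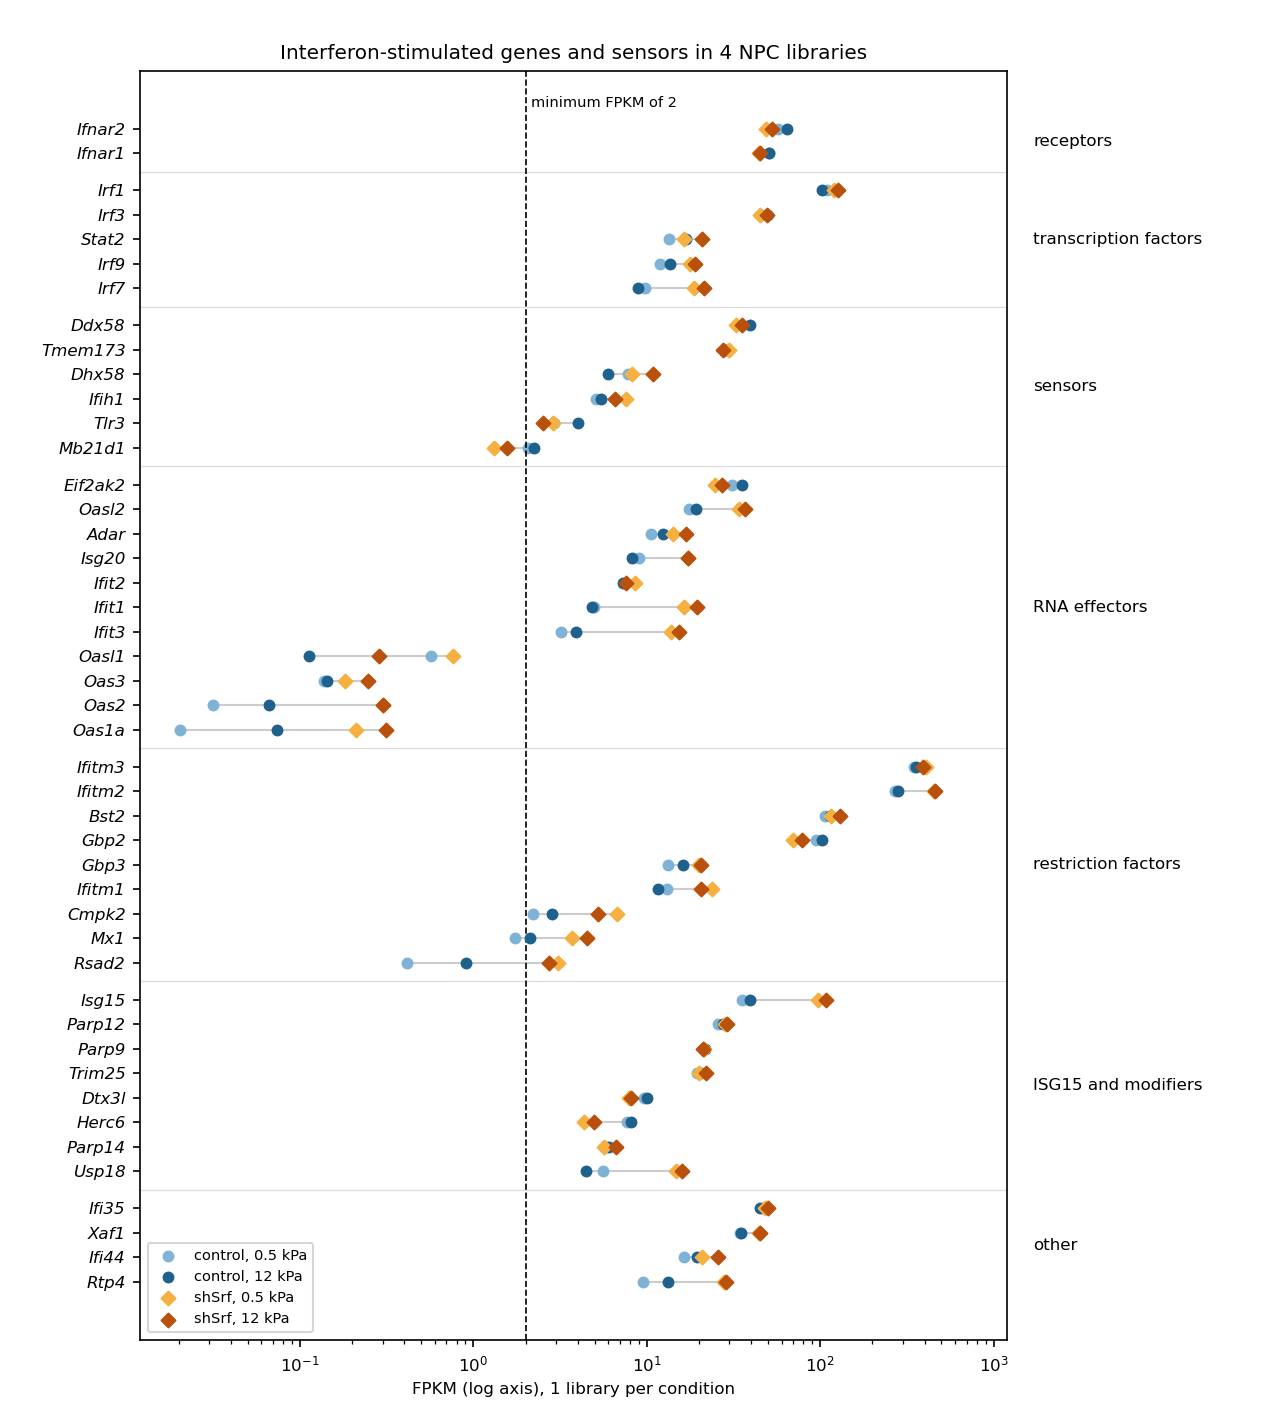
FPKM on a log axis in each of the 4 libraries (circles for control, diamonds for shSrf) for 45 of the genes, grouped by role, with the minimum of 2 as a dashed line. For Ifit1, Ifit3, Isg15, Usp18 and Rtp4 both shSrf libraries lie above both control libraries, while Gbp2, Eif2ak2 and Herc6 show the reverse order.

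The receptor chains were among the lower genes. Ifnar1 was at 50.4, 50.7, 44.5 and 45.0, a log2 ratio of -0.18 ± 0.03 (counting SE) on the soft and -0.17 ± 0.03 on the stiff matrix. Ifnar2, the chain that also binds Usp18, was at 57.1, 64.2, 48.8 and 52.9 (log2 ratios of -0.23 ± 0.06 and -0.28 ± 0.05). Both chains were lower in both Srf-knockdown libraries than in either control library, and the ratios at the same stiffness were at most 1.21-fold. They lie well inside the range of most genes.

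Of the 5 transcription factors, 3 were higher in Srf-knockdown NPCs at both stiffnesses and none was lower at both (beside 30.3% and 28.8% of all genes). Irf7, the factor that interferon itself induces and that amplifies interferon gene expression, was at 9.80, 8.85, 18.7 and 21.3, which is 1.91-fold higher on the soft and 2.40-fold higher on the stiff matrix (log2 ratios 0.93 ± 0.08 and 1.27 ± 0.08). Irf9, the DNA-binding subunit of the complex that holds Stat2, was at 12.0, 13.6, 17.7 and 19.1 (1.48-fold and 1.40-fold). Stat2 was at 13.4, 16.9, 16.4 and 20.8 (1.22-fold and 1.23-fold). For Irf7 and Irf9 the control and Srf-knockdown libraries did not overlap, while for Stat2 the control library on the stiff matrix was above the Srf-knockdown library on the soft matrix. Irf1, which interferon gamma induces strongly, was at 110, 103, 120 and 126, past the threshold on the stiff matrix only (1.22-fold). Irf3, which is activated by phosphorylation and needs no induction, was at 50.1, 45.5, 44.8 and 49.1, lower on the soft matrix (1.12-fold) and higher, within the threshold, on the stiff matrix (1.08-fold). The most abundant of these factors in all libraries, Irf1 and Irf3, thus had the smaller ratios on the soft matrix. On the stiff matrix the ratio of Irf1 was close to that of Stat2.

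Of the sensors, 5 of 6 were above the minimum and only Ifih1 was higher at both stiffnesses (beside 30.3% of all genes). Ifih1, known as MDA5, which senses long double-stranded RNA, was at 5.11, 5.47, 7.61 and 6.52 (1.49-fold and 1.19-fold). Ddx58, known as RIG-I, which senses RNA with a triphosphate end, was at 35.2, 39.3, 32.7 and 35.3, and its ratio passed the threshold downwards on the stiff matrix only (log2 ratio -0.16 ± 0.04). The related helicase Dhx58, known as LGP2, was at 7.84, 5.95, 8.27 and 10.8, so it was close to control on the soft matrix (1.05-fold) and 1.82-fold higher on the stiff matrix. Tlr3, which senses double-stranded RNA in endosomes, went the other way on the stiff matrix, at 2.92, 4.0, 2.87 and 2.52 (log2 ratios -0.03 ± 0.10 and -0.67 ± 0.09). Tmem173, the adaptor STING, was at 28.7, 29.0, 29.7 and 27.6, within the threshold in both ratios. Mb21d1, the DNA sensor cGAS, was at 2.08, 2.25, 1.32 and 1.57 and so fell under the minimum in the Srf-knockdown libraries. The 3 RNA helicases of the family therefore had 3 different patterns.

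Among the effectors that bind, cut or edit RNA, 7 of 11 were above the minimum. Of these 7, 5 were higher and 1 was lower at both stiffnesses, beside 30.3% and 28.8% of all genes. The median log2 ratio of the 7 was 0.95 and 0.94. Ifit1, whose protein binds viral RNA at its 5′ end, was at 4.94, 4.81, 16.3 and 19.6, which is 3.30-fold higher on the soft matrix and 4.08-fold on the stiff matrix (log2 ratios 1.72 ± 0.08 and 2.03 ± 0.09). Ifit3, the partner of Ifit1 in a complex, was at 3.20, 3.89, 13.8 and 15.3 (4.30-fold and 3.92-fold, log2 ratios 2.10 ± 0.13 and 1.97 ± 0.13). Ifit2, which lies beside them, was at 7.45, 7.33, 8.55 and 7.62, past the threshold on the soft matrix only (1.15-fold and 1.04-fold). Ifit2 was thus above Ifit1 and Ifit3 in control NPCs and below both in Srf-knockdown NPCs. Ifit3 shares 51.5% of its 50-base stretches with a near-identical copy (I830012O16Rik in the reference transcripts, the gene now named Ifit3b), so its value is uncertain: the listed Ifit3b was at 1.16, 1.45, 3.90 and 4.81. Ifit1 shares 7.13% with a relative, and the interval RefSeq gives for it overlaps Ifit1bl1.

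Oasl2, an oligoadenylate synthetase-like protein, was at 17.5, 19.3, 33.9 and 37.1 (1.94-fold and 1.92-fold). Isg20, an exonuclease that degrades single-stranded RNA, was at 9.01, 8.19, 17.4 and 17.4 (1.93-fold and 2.12-fold). For both genes each Srf-knockdown library was far above each control library. Adar, which edits adenosine to inosine in double-stranded RNA, was at 10.6, 12.4, 14.1 and 16.8 (1.33-fold and 1.35-fold). Eif2ak2, the kinase PKR that stops translation when it binds double-stranded RNA, was at 31.1, 35.4, 24.9 and 27.2, lower at both stiffnesses (log2 ratios -0.33 ± 0.03 and -0.38 ± 0.03). It was the one RNA effector with a fall past the threshold, and the most abundant of the 7 in control NPCs.

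Of the restriction factors and guanylate-binding proteins, 7 of 10 were above the minimum. Of these 7, 4 were higher and 1 was lower at both stiffnesses, beside 30.3% and 28.8% of all genes. The Ifitm proteins, which block fusion of viruses with cell membranes, include the pair with the highest levels of the whole set, Ifitm2 and Ifitm3. Ifitm2 was at 272, 280, 455 and 460 (1.67-fold and 1.64-fold), Ifitm3 at 346, 357, 407 and 391 (1.18-fold and 1.09-fold), and Ifitm1 at 13.1, 11.6, 23.8 and 20.5 (1.82-fold and 1.76-fold). Ifitm1 and Ifitm2 passed the threshold at both stiffnesses and Ifitm3 on the soft matrix only, and the level of Ifitm2 was above that of Ifitm3 in the Srf-knockdown libraries. Ifitm2 and Ifitm3 share 11.1% and 10.0% of their 50-base stretches with other transcripts. A part of their reads may therefore have been removed by the authors' filter on mapping quality or divided between copies. Bst2, the tether that holds budding virus at the cell surface, was at 107, 114, 115 and 131, past the threshold on the stiff matrix only (1.15-fold). Cmpk2, a nucleotide kinase, was at 2.21, 2.85, 6.71 and 5.21 (3.03-fold and 1.83-fold).

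The guanylate-binding proteins Gbp2 and Gbp3, interferon-induced GTPases that act on intracellular pathogens, went opposite ways. Gbp2 was at 94.6, 102, 69.6 and 78.9 (log2 ratios -0.44 ± 0.03 and -0.37 ± 0.03). Gbp3 was at 13.3, 16.1, 19.9 and 20.5 (log2 ratios 0.58 ± 0.06 and 0.35 ± 0.05). In each gene the control and Srf-knockdown libraries did not overlap. Only 2.07% and 4.79% of the 50-base stretches of Gbp2 and Gbp3 occur in another transcript, in Gbp1 and Gbp7 at most.

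Of the 8 genes for the Isg15 pathway, ubiquitin ligases and ADP-ribosyltransferases, all were above the minimum, 2 were higher and 2 lower at both stiffnesses (beside 30.3% and 28.8% of all genes), and the median log2 ratio was 0.00 and 0.08. Isg15, the ubiquitin-like protein that is attached to other proteins in the interferon response, was at 35.3, 39.4, 97.1 and 108 (2.75-fold and 2.74-fold, log2 ratios 1.46 ± 0.07 and 1.46 ± 0.07). Usp18, the protease that removes Isg15 and dampens signalling at Ifnar2, was at 5.60, 4.45, 14.7 and 15.9 (2.62-fold and 3.58-fold, log2 ratios 1.39 ± 0.10 and 1.84 ± 0.12). Herc6, the ligase that attaches Isg15 in mouse cells, was at 7.67, 8.14, 4.36 and 4.97, the largest fall of the set (log2 ratios -0.81 ± 0.08 and -0.71 ± 0.08, or 1.76-fold and 1.64-fold lower). The modifier, its protease and its ligase thus did not move together. Dtx3l was at 9.70, 10.0, 7.92 and 8.17 (1.23-fold and 1.22-fold lower), and its partner Parp9, with which it forms a ubiquitin ligase complex, was at 21.8, 21.7, 21.4 and 21.1, within the threshold. Trim25, a ligase that acts on Ddx58, was at 19.5, 20.5, 19.9 and 21.9. Parp12 was at 25.7, 27.7, 28.2 and 28.9, and Parp14 at 6.13, 5.99, 5.69 and 6.64. These last 3 were within the threshold in both ratios, except Parp14 on the stiff matrix (1.11-fold).

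The remaining 4 interferon-induced genes were higher or within the threshold. Rtp4 was at 9.53, 13.2, 27.9 and 28.6 (2.93-fold and 2.17-fold, log2 ratios 1.55 ± 0.08 and 1.12 ± 0.07). The interval of Rtp4 in RefSeq overlaps that of Masp1. Xaf1, a partner of the apoptosis inhibitor Xiap, was at 34.5, 35.1, 44.5 and 45.1 (1.29-fold and 1.28-fold). Ifi44 was at 16.5, 19.4, 20.9 and 25.6 (1.26-fold and 1.32-fold), and Ifi35, which binds Nmi, at 46.9, 45.3, 48.0 and 50.2 (1.02-fold and 1.11-fold).

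The genes under the minimum were Mb21d1, Oas1a, Oas2, Oas3, Oasl1, Mx1 and Rsad2, and Mx2 was not analysed here. The Oas family is known for the oligoadenylate that activates RNase L, which not every member makes. The highest values were 0.314 for Oas1a, 0.302 for Oas2, 0.248 for Oas3 and 0.766 for the related Oasl1. Oas1a rested on an estimated 1 and 3 reads in control and 16 and 33 in Srf-knockdown NPCs, so no fold is given for it. Rsad2, known as viperin, was at 0.412, 0.902, 3.09 and 2.74, from an estimated 47.9, 86.8, 555 and 680 reads, which is 7.49-fold and 3.03-fold higher in Srf-knockdown NPCs (log2 ratios 2.90 ± 0.22 and 1.60 ± 0.16). Mx1, a dynamin-like GTPase, was at 1.74, 2.11, 3.70 and 4.51 (2.12-fold and 2.14-fold, log2 ratios 1.08 ± 0.21 and 1.09 ± 0.20). RefSeq lists Mx1 as a transcribed pseudogene on this build.

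Several of the genes are neighbours in the genome, and neighbours did not always share a direction. On chromosome 19 (RefSeq on GRCm38.p6, the build called mm10), Ifit2 lies at 34550550 to 34576534, Ifit3 at 34583119 to 34588982 and Ifit1 at 34640889 to 34650009, and the ratio of Ifit2 was small beside those of the others. Rsad2 (chromosome 12, 26442743 to 26456452) and Cmpk2 (26469117 to 26479837) lie 12664 bases apart, and both were higher in Srf-knockdown NPCs, more so on the soft matrix. Gbp3 (chromosome 3, 142560016 to 142573213) and Gbp2 (142620663 to 142638008) lie 47449 bases apart and went opposite ways. Dtx3l and Parp9 on chromosome 16 overlap by 558 bases. The library kit keeps the strand, but whether the counting used it is not given in the sources used here, so the reads of that stretch may be shared.

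Promoters of 37 of the 46 genes were found in RefSeq (GRCm38.p6, 250 bases before to 50 after the start of a transcript). They were searched on both strands for the core of the ISRE, the letters GAAA, any 2 bases, GAAA. The core was found in 15 of the 37 (40.5%), beside 3.99% of 27025 genes with promoters of the same length. The sites are shown for the genes beyond 2-fold at both stiffnesses that have one, leaving out Oas1a, whose FPKM stayed under 0.5 in every library, and for the opposite pair Gbp2 and Gbp3. Capitals mark the core, which reads as TTTC, any 2 bases, TTTC where it lies on the other strand. All are written 5′ to 3′ on the strand of the gene, and overlapping cores run together.

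Ifit1, chr19:34640755-34640843, plus strand, with 2 cores that begin 104 bases before the start and end 76 bases before it: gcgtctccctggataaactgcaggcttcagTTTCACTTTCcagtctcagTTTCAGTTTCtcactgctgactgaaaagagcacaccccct
Ifit3, chr19:34583366-34583389, plus strand, the first core, which begins 156 bases before the start: tggtaagTTTCACTTTCctcttct
Ifit3, chr19:34583400-34583423, plus strand, the second core, which begins 122 bases before the start: aagtctgTTTCAGTTTCtactttc
Isg15, chr4:156200845-156200926, minus strand, with 3 overlapping cores from 78 to 57 bases before the start: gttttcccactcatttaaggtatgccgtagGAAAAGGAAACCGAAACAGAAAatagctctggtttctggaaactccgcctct
Rsad2, chr12:26456533-26456602, minus strand, with 1 core from 120 to 111 bases before the start: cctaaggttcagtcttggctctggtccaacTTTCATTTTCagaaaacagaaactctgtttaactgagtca
Gbp2, chr3:142620574-142620643, plus strand, with 1 core from 59 to 50 bases before the start: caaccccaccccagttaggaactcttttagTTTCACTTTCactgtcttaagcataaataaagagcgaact
Gbp3, chr3:142559992-142560021, plus strand, with 2 overlapping cores from 45 to 30 bases before the start: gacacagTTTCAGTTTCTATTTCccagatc

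Ifit1 and Ifit3 each hold a pair of cores, and their first cores have the same 10 letters as the single core of Gbp2, which was lower in Srf-knockdown NPCs. The genes shown were chosen by their ratios, and Gbp2 is the only lower gene among them. Eif2ak2, also lower at both stiffnesses, holds a core that is not shown. Whether the letters of the core differ between higher and lower genes was therefore not tested. Ifit3 and Gbp3 have further starts in RefSeq. The cores of Ifit3 lie inside the annotated gene, while those of Gbp3 lie just before it and only the bases beside them reach into it. Both are given as short stretches. Usp18, Rtp4 and Mx1 were among the 9 genes without a promoter in the table.

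Of the 32 genes above the minimum with a promoter, the 12 that hold the core had a median log2 ratio of 0.433 on the soft and 0.277 on the stiff matrix, and the 20 without it 0.167 and 0.221. In each ratio 8 of the 12 were higher, beside 10 and 11 of the 20. Among 288 other included genes that hold the core the median was 0.027 and 0.032, and 40.6% and 38.5% were higher, beside 37.8% and 37.7% of 7937 other genes without it. The gamma-activated site (TTC, any 3 bases, GAA) was found in 11 of 37 promoters (29.7%, beside 9.55% of all genes), and it shared bases with the ISRE core in Ifitm3 and Bst2. The CArG box bound by Srf was found in Irf3 only (2.70%, beside 1.81% of all genes).

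**Figure D3:**
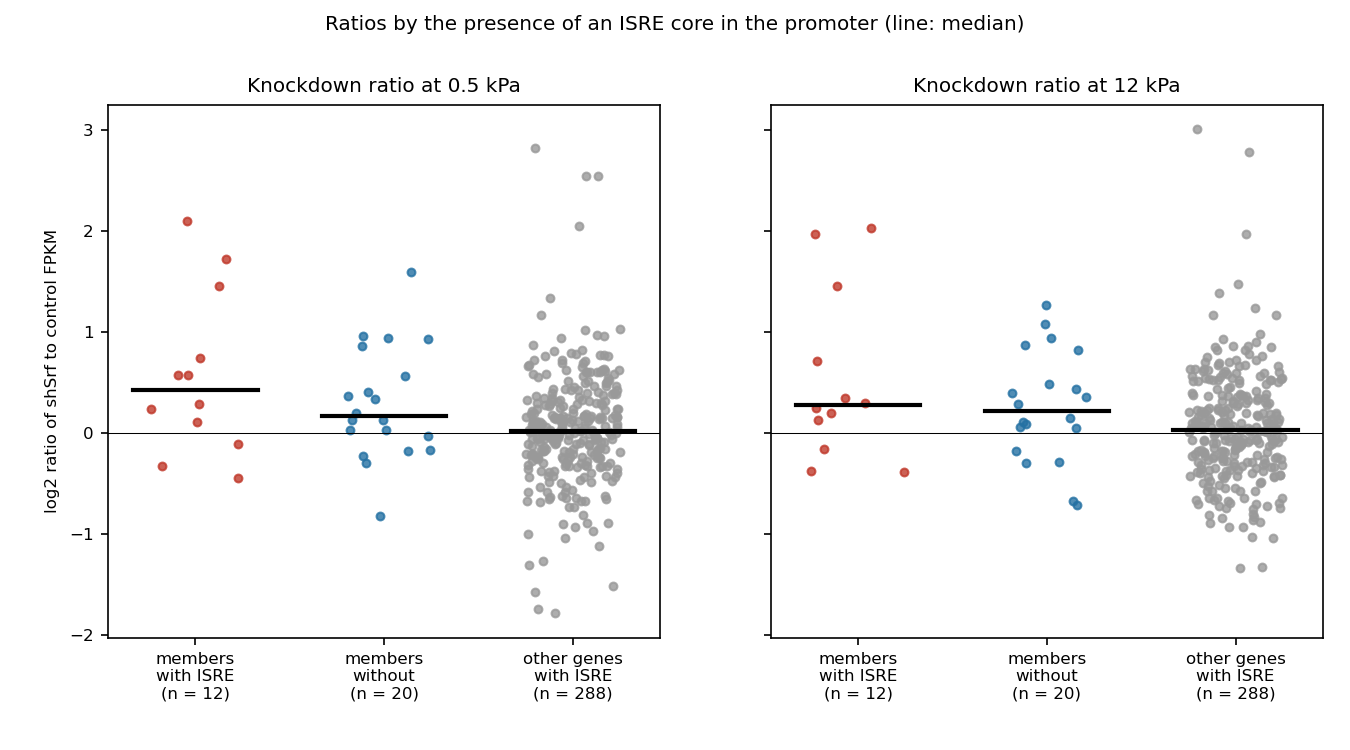
Log2 ratio of Srf-knockdown over control NPCs (vertical axis) on each matrix for the 12 genes of the set (members) with the ISRE core in the promoter, the 20 without it and 288 other included genes with it, with 1 point per gene and a line at each median. The medians of the 12 genes are 0.433 and 0.277, and points of all 3 groups lie on both sides of 0.

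Between the stiff and the soft matrix, the log2 ratios of the 38 genes had a narrower range than between the populations, from -0.40 to 0.47 in control and from -0.36 to 0.39 in Srf-knockdown NPCs, though for Stat2 both stiffness ratios were larger than both ratios between the populations. In control NPCs 14 of 38 genes (36.8%) were higher on the stiff matrix by more than 1.1-fold and 5 (13.2%) were lower, beside 17.9% and 16.9% of all genes. In Srf-knockdown NPCs 12 (31.6%) were higher and 5 (13.2%) lower, beside 17.6% and 13.0% of all genes. The median log2 ratio was 0.08 in control NPCs and 0.11 after Srf knockdown, and that of all genes 0.0030 and 0.0064. None of the 38 genes passed 1.5-fold in either population.

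Stat2, Ifit3, Adar, Isg15 and Ifi44 were higher on the stiff matrix in both populations (5 of 38, 13.2%, beside 5.10% of all genes), and Ifitm1 was lower in both (2.63%, beside 3.24% of all genes). Stat2 was 1.26-fold and 1.27-fold higher on the stiff matrix (log2 ratios 0.33 ± 0.05 and 0.34 ± 0.03) and Ifi44 1.17-fold and 1.23-fold. Ifit3 was 1.22-fold and 1.11-fold higher, with a counting SE of 0.17 on a log2 ratio of 0.28 in control NPCs. Isg15, in contrast, rose by only 1.12-fold and 1.11-fold, so its difference between populations was many times that between matrices.

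In 4 of 38 genes (10.5%, beside 6.01% of all genes) the stiffness ratio passed the threshold in opposite directions in the populations. Dhx58 was 1.32-fold lower on the stiff matrix in control and 1.31-fold higher in Srf-knockdown NPCs, and Irf7 1.11-fold lower and 1.14-fold higher. Tlr3 was 1.37-fold higher and 1.14-fold lower, and Cmpk2 1.29-fold higher and 1.29-fold lower. The control log2 ratio of Irf7 (-0.15 ± 0.10) and the Srf-knockdown ratio of Tlr3 (-0.19 ± 0.09) lay near the threshold beside their counting errors. These differences were not tested, and they restate, from the same 4 values, that the ratio between populations of these genes differed by stiffness. Rtp4, Gbp3 and Usp18 passed 1.2-fold in control NPCs only, at 1.39-fold and 1.21-fold higher and 1.26-fold lower, and Ifit1 in Srf-knockdown NPCs only, with a log2 ratio of 0.27. Of the genes under the minimum, Rsad2 was 2.19-fold higher on the stiff matrix in control and 1.13-fold lower in Srf-knockdown NPCs, Mx1 1.21-fold and 1.22-fold higher in control and Srf-knockdown NPCs, and Oasl1 5.05-fold and 2.69-fold lower, the control value from an estimated 32.8 and 5.39 reads.

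**Figure D4:**
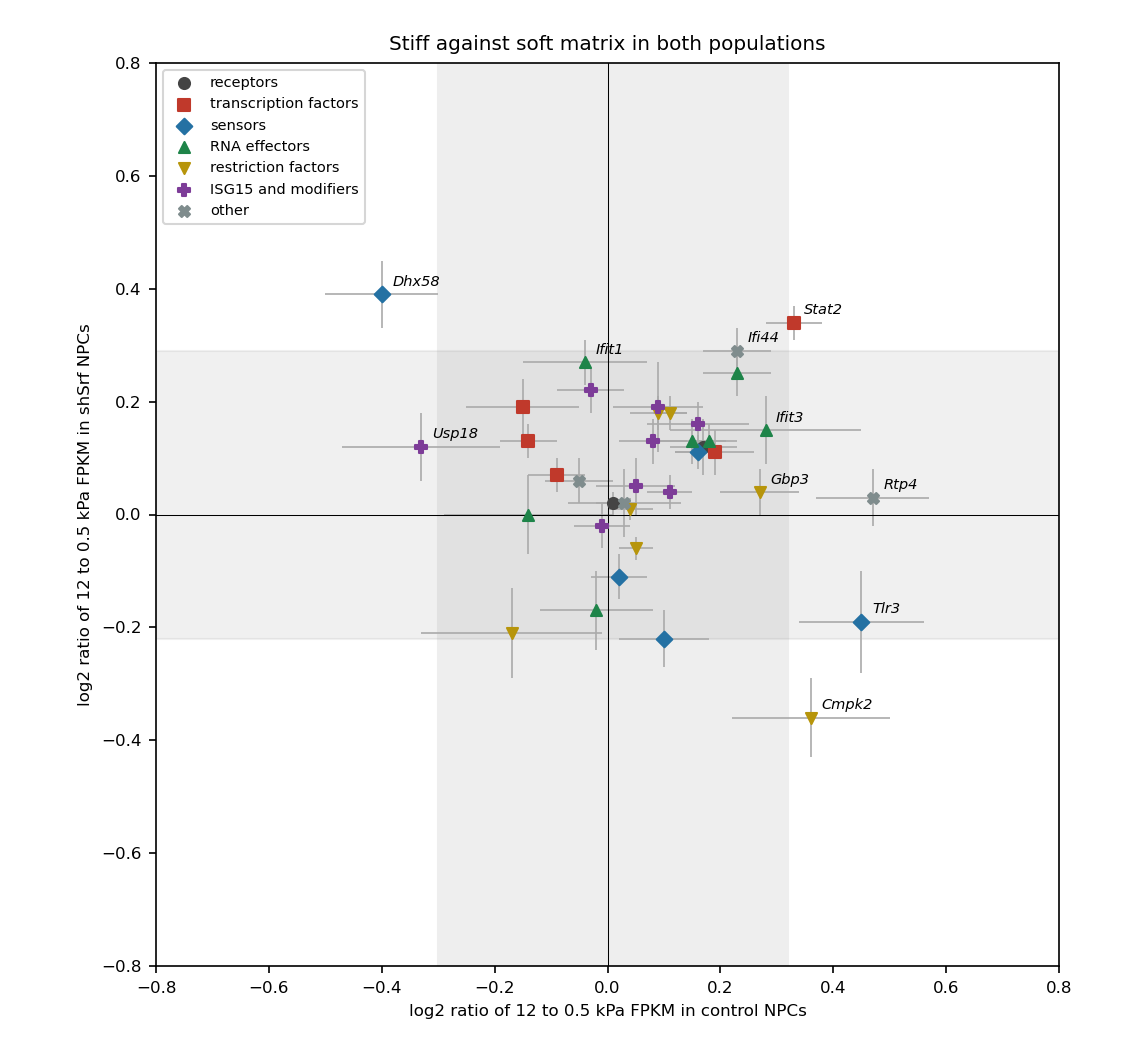
Log2 ratio of the 12 kPa over the 0.5 kPa library in control (horizontal axis) and in Srf-knockdown NPCs (vertical axis), with 1 point for each of the 38 genes, a symbol for each role, counting errors (SE) as bars and grey bands from the 5th to the 95th percentile of all included genes. Stat2 lies at upper right, Dhx58 at upper left, and Tlr3 and Cmpk2 at lower right.

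Further interferon-stimulated genes showed a like mixture of directions. Of 52 such genes outside the set, 50 were listed and 31 were above the minimum, of which 13 (41.9%) were higher and 5 lower in Srf-knockdown NPCs at both stiffnesses, beside 30.3% and 28.8% of all genes, with a median log2 ratio of 0.10 and 0.21. Ifi27l2a, a short interferon-induced transcript, was at 2.88, 4.43, 11.6 and 12.9 (4.02-fold and 2.92-fold, from an estimated 22.1 and 28.1 reads in control NPCs). Igtp and Samd9l were next, with log2 ratios of 0.87 and 0.90 and of 0.95 and 0.66. Iigp1, a GTPase of the same family as Igtp, was at 13.6, 15.3, 7.92 and 8.57 (log2 ratios -0.78 and -0.84), and Lgals8 and Ifi204 had the next largest falls. As with Gbp2 and Gbp3, members of 1 GTPase family thus stood at both ends of the list.

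Of 26 genes of interferon signalling, 20 were above the minimum, of which 6 were higher and 4 lower at both stiffnesses, beside 30.3% and 28.8% of all genes, with a median log2 ratio of 0.09 and 0.01. Irf5 was at 2.75, 2.52, 9.64 and 9.61 (3.51-fold and 3.81-fold), and Ticam1, the adaptor of Tlr3, was 1.79-fold and 1.76-fold higher. Socs1, an inhibitor of the Jak kinases, had log2 ratios of 0.53 and 0.93. Jak1, the kinase bound to Ifnar2, was at 53.4, 55.3, 34.9 and 34.1 (log2 ratios -0.61 and -0.69), Jak2 had log2 ratios of -0.53 and -0.67, and Tyk2, the kinase bound to Ifnar1, was at 13.8, 11.9, 14.8 and 14.8. Mavs, the adaptor of Ddx58 and Ifih1, had log2 ratios of 0.55 and 0.40, and Tbk1, which phosphorylates Irf3, of -0.33 and -0.08. Socs3 was at 81.9, 56.0, 32.0 and 49.2, so it fell by 1.36 on the log2 scale on the soft matrix and by 0.19 on the stiff matrix. The receptor chains and Jak1 were thus lower, while Stat2 and Irf9 were higher, in the same libraries.

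**Figure D5:**
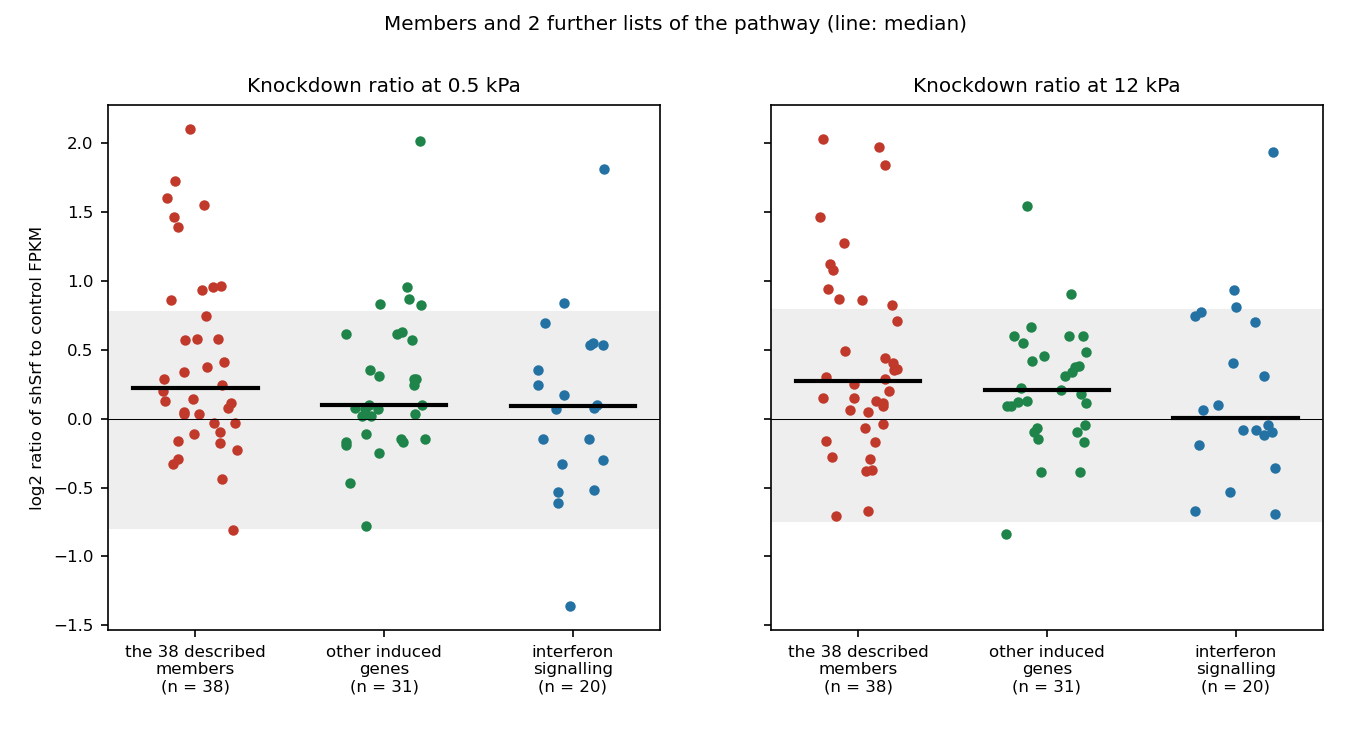
Log2 ratio of Srf-knockdown over control NPCs (vertical axis) on each matrix for the 38 genes of the set, 31 further interferon-stimulated genes and 20 genes of interferon signalling, with 1 point per gene, a line at each median and a grey band from the 5th to the 95th percentile of all included genes. The medians on the soft matrix are 0.22, 0.10 and 0.09, and each list has points beyond the band.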

How the data were processed

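RNA of 4 cultures, 1 per condition, was sequenced by the authors as single-end stranded mRNA libraries. Per the submitters' processing notes and the study's methods, the authors trimmed reads with cutadapt 1.9.1, mapped them to mm10 with TopHat2 2.1.0 and Bowtie2 2.2.8, kept reads with a mapping quality of at least 20 and computed 1 value per gene with Cufflinks 2.2.1. The deposited values are FPKM and were used without rescaling. Such values depend on the transcript models and on how reads of similar genes are filtered or divided.

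Symbols that occurred more than once (63, in 135 of 21997 rows) were left out. Genes above an FPKM of 2 in all 4 libraries were included, and log2 ratios were computed without a pseudocount, with the study's threshold of 1.1-fold and a second one of 2-fold. The 46 genes and the lists of other genes were chosen with earlier results of these data known, so counts over them are descriptions. All 46 genes are accounted for, those above the minimum with every value. Of the other lists, the 3 largest rises and falls by mean ratio among genes above the minimum are named, with Jak1, Tyk2, Mavs and Tbk1. An item that this rule also named is not reported here. Promoter sites are shown for genes past 2-fold at both stiffnesses with an FPKM above 0.5 in any library, whether or not above the minimum, and for paralogs that went opposite ways.

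Depth came from genes whose FPKM lay under 0.1, where values step by whole reads, and from the lengths of 177 genes with transcripts above 1000 nucleotides, less 200 nucleotides. Counting errors are Poisson errors of the estimated reads and rest on GENCODE transcript lengths matched by symbol for 44 of the 46 genes. The share of 50-base stretches in other genes was computed from the same transcripts (build NCBIM37, used by symbol only). Coordinates and promoters are those of RefSeq on GRCm38.p6. The depth estimates and the calls of ratios past 1.1-fold were tested on simulated counts. These were drawn with the same transcript lengths that the depth estimate uses. The motif search, the shared stretches, GC centring and counting errors were not tested in this way. Calculations used Python 3.11.15 with pandas 2.3.3, numpy 2.4.6 and scipy 1.17.1, and plots matplotlib 3.10.9. Alternatives were other minimums, a pseudocount of 1, centring on the median or within 50 bins of transcript GC content, a common 75th percentile, and calls at 1.5-fold and 2-fold.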

Additional observations from a re-analysis of the deposited data

Results flagged for a closer look

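In 4 of 38 genes the libraries of control and of Srf-knockdown NPCs moved in opposite directions with stiffness, past 1.1-fold in each. This was 10.5% of the genes, beside 6.01% of all included genes. The difference between the log2 stiffness ratios (Srf-knockdown minus control) was 0.79 for Dhx58, from -0.40 ± 0.10 (counting SE) in control to 0.39 ± 0.06 in Srf-knockdown NPCs. For Irf7 it was 0.33, from -0.15 ± 0.10 to 0.19 ± 0.05. It was -0.64 for Tlr3, from 0.45 ± 0.11 to -0.19 ± 0.09, and -0.73 for Cmpk2, from 0.36 ± 0.14 to -0.36 ± 0.07. The differences were not tested, since each condition had 1 library.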

How the results depend on the processing

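Recomputing the ratios of the described genes with a pseudocount, another scaling or GC centring gave 608 values. Among ratios that had passed 1.1-fold, 1 changed sign: Ifi35 on the stiff matrix, at -0.01 after GC centring. Changes of sign among ratios within the threshold were not counted. GC centring moved 19 ratios across the 1.1-fold threshold, the pseudocount 4, median centring 1 and scaling to the 75th percentile 0. With a threshold of 1.5-fold, 11 genes were higher and 1 lower in Srf-knockdown NPCs on the soft matrix and 12 and 2 on the stiff matrix, beside 9.19% and 9.28% and 10.2% and 8.88% of all genes. With 2-fold the counts were 6 and 0, and 7 and 0. No gene was higher (0) or lower (0) on the stiff matrix in either population at 1.5-fold or 2-fold. The count of genes lower on the stiff matrix in control NPCs fell to 3 with the pseudocount of 1 and to 3 with GC centring, and in Srf-knockdown NPCs to 3 with a minimum FPKM of 5, which left 32 genes, and to 3 with GC centring. The log2 ratios of 9569 included genes went with the GC content of their transcripts (Spearman's rho across genes 0.272 and 0.424 for the ratios between populations on the soft and stiff matrix, and -0.129 and 0.356 for those between matrices in control and Srf-knockdown NPCs), though the described genes had a median GC content of 50.6% beside 50.8%. After GC centring their median ratio between populations was 0.21 and 0.26. No paired analysis was possible because the conditions share only 1 replicate number, with 1 library each. An additive fit over the 4 libraries was not run, and no library was left out. Ratios of genes with few reads, such as Oas1a, are limited by depth.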

Other observations

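Of the 52 further interferon-stimulated genes, 5 had an FPKM above 2 in both Srf-knockdown libraries and below 2 in both control libraries. They were chosen after their values were seen, and their selection fixes their direction. How many of all genes meet the same rule was not counted, so the 5 are not a result about the list. Of all genes, 10855 and 10871 were above 2 in the control libraries and 10933 and 11001 in the Srf-knockdown libraries. Ifit3b, described beside Ifit3, was 1 of the 5. Gbp4 was at 0.312, 0.244, 2.92 and 2.26, Gbp6 at 1.22, 1.29, 4.22 and 4.36, and Gbp9 at 1.31, 0.906, 5.15 and 5.22, all guanylate-binding proteins like Gbp2 and Gbp3. Zbp1, which senses left-handed nucleic acids, was at 0.566, 0.590, 2.39 and 2.41, from an estimated 19.4, 16.8, 127 and 177 reads. Of the guanylate-binding proteins not chosen in this way, Gbp7 was at 10.3, 10.7, 10.5 and 11.5 and Gbp5 at 0.206, 0.271, 0.197 and 0.300. Ifi44l, on the same list and also under the minimum, went the other way, at 1.52, 2.36, 0.925 and 0.956 (log2 ratios -0.72 and -1.31).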
